A study of Mus musculus with 15 samples.

Results

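The 10 genes described here are those of the muscle atrophy programme and of the FoxO transcription factors that drive it, measured in femoral RNA of 15 male C57BL/6J mice. The labels give their age as 9 weeks, which in the study's methods is the age at surgery, before the flight. The genes were chosen by name and found on the array through the accession of each probe. All 10 had a probe, of 21154 genes with a matched symbol, and together they had 15 probes of 55681. Mice were kept on the ground or flown on the International Space Station for about a month, and were either unoperated sham controls or carried a 2 mm segmental bone defect (SBD) in the femur. This gave 4 ground (G-Sham) and 4 flown (FLT-Sham) sham mice and 4 ground (G-Surgery) and 3 flown (FLT-Surgery) operated mice, with 1 array per mouse. A scaffold bridged the defect and was wrapped in a collagen sponge soaked with saline, and the labels of these mice carry the code SAL. The tissue is labelled callus, and in sham mice it was the same midshaft segment of an intact femur. Sample RNA carried Cy5 and a reference RNA pooled from mouse cell lines carried Cy3. Dyes were not swapped on any array. A log2 ratio is the Cy5 signal of the sample over the Cy3 signal of the reference, so 0 means equal signals, and the levels of different genes cannot be compared through it.

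Muscle loses protein during unloading, fasting, denervation and glucocorticoid excess mainly through the ubiquitin proteasome system. When insulin and IGF1 signalling through AKT falls, FoxO proteins enter the nucleus and raise the transcription of the muscle ubiquitin ligases Fbxo32 (atrogin-1) and Trim63 (MuRF1). Myostatin (Mstn), a secreted inhibitor of muscle growth, and Klf15, a glucocorticoid-induced transcription factor, act on the same programme. Cdkn1a, Gadd45a, Ddit4 and Bnip3 are broader stress genes, for growth arrest, mTOR inhibition and mitophagy, that are active in many tissues.

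The promoters of Trim63 and Mstn are shown because both members had their highest ratios on FLT-Sham replicates 4 and 6, although Mstn was near the limit of detection, as given below. The Trim63 promoter is known for a glucocorticoid receptor site that lies beside a FoxO site. Both sequences run 5' to 3' from RefSeq (GRCm38.p6), from 250 bases before to 50 bases after the start of transcription, at chr4:134314870-134315169 on the plus strand for Trim63 and chr1:53061390-53061689 on the plus strand for Mstn. Capitals mark matches on either strand to the forkhead motif GTAAACA, the glucocorticoid receptor half-site AGAACA and the TATA box TATAAA.
Trim63: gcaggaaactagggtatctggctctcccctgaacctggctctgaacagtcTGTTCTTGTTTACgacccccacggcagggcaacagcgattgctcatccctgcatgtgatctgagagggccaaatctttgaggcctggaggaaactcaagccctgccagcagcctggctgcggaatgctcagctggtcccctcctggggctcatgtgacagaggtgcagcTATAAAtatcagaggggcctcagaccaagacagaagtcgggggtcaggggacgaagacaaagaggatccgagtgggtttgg
Mstn: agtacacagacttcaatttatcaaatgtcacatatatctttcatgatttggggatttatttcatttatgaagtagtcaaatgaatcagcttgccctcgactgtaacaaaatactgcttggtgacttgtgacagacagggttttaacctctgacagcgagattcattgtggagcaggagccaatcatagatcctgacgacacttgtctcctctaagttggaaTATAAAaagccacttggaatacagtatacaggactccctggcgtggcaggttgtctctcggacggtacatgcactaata
In Trim63 the AGAACA match begins at -200 from the start and the GTAAACA match follows it directly at -194, both on the minus strand, with TATAAA at -31. The Mstn promoter held TATAAA at -29 and neither of the other motifs. The promoter table held 9 of the 10 members, with 10 promoters, and of these only that of Trim63 held GTAAACA, which was in 3.65% of 32851 promoters. AGAACA was in 1 of the 10 (19.0% of all promoters), TATAAA in 2 (13.6%), and CANNTG, the E-box, in 8 (72.3%). A match describes these letters and is not evidence of binding.

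The Cy5 signal was well above background, by the call of the scanner software, for 22.4% to 38.5% of probes per array. The number of such probes was 12861 to 18291 in G-Sham, 14812 to 21460 in FLT-Sham, 14303 to 20687 in G-Surgery and 12488 to 14257 in FLT-Surgery. FLT-Sham replicate 8 stood apart from the rest of its group, with 14812 such probes beside 19420 to 21460. The study describes its bone RNA as of sub-optimal quality, similar in flight and ground samples, and names this as a limit of its arrays. How RNA quality bears on single arrays or probes was not tested. Of 10 osteoblast and osteocyte markers 1 to 6 per array were above background. Col1a1 was above background on every array, while Dmp1, Phex, Sost and Sp7 were above it on none. Of 16 skeletal muscle markers 13 to 16 per array were above background, so the labelled bone tissue carried muscle RNA on all 15 arrays. The mean log2 ratio of the muscle markers was 6.39 to 9.30 in G-Sham, 7.15 to 9.32 in FLT-Sham, 6.10 to 8.50 in G-Surgery and 4.26 to 7.73 in FLT-Surgery. The mean of 7 adipocyte markers was -0.61 to 3.59 in G-Sham, 2.96 to 4.96 in FLT-Sham, 0.50 to 1.46 in G-Surgery and -1.22 to 1.99 in FLT-Surgery. In bulk RNA, fewer cells of a type and less RNA per cell cannot be told apart.

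**Figure D1:**
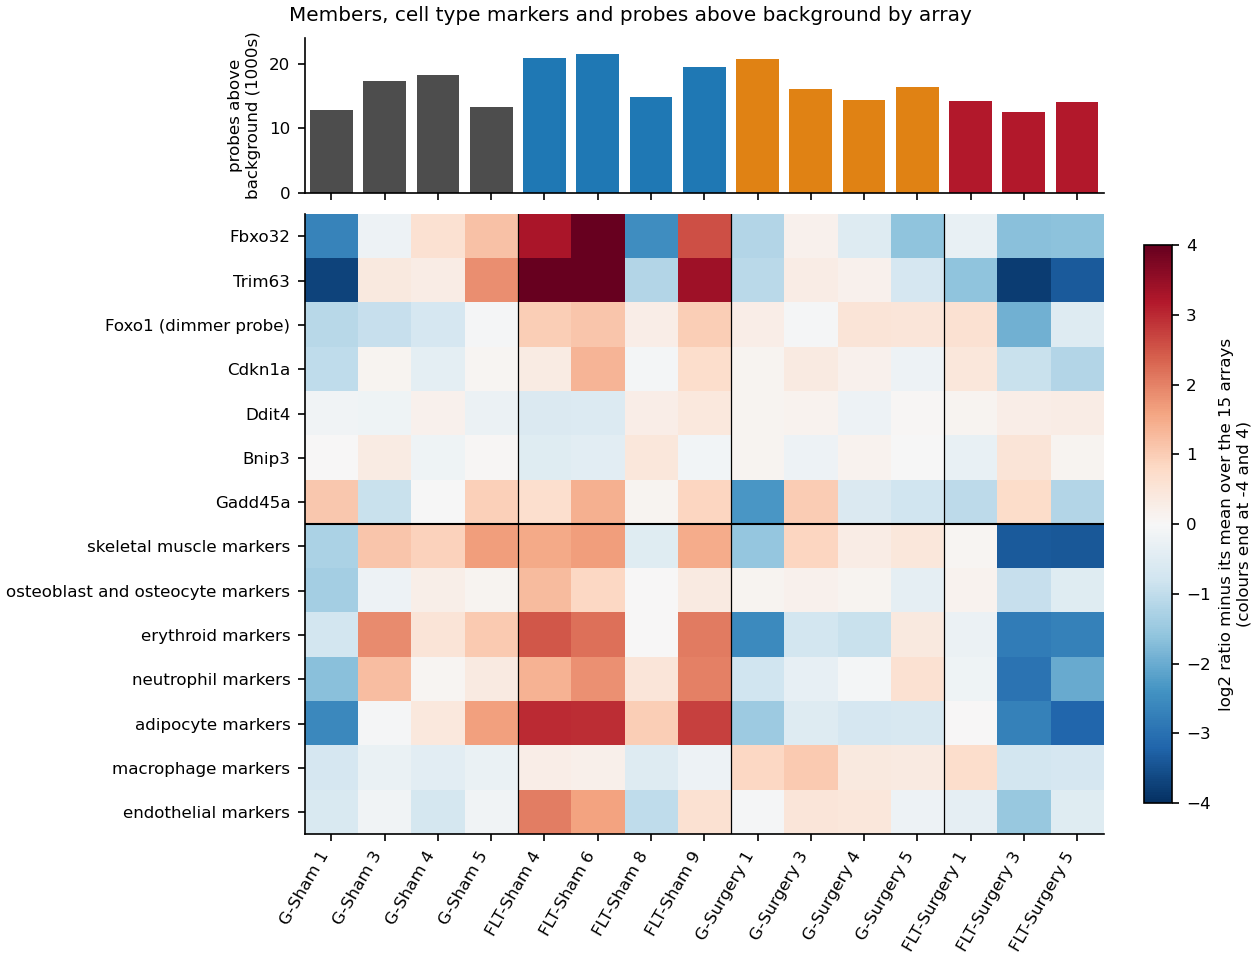
Each column is an array; bars give the number of probes with Cy5 well above background, and colours give each log2 ratio minus its mean over the 15 arrays, for 7 members above the line and the mean of each marker list below it. Fbxo32, Trim63 and the erythroid, neutrophil and adipocyte markers are high on FLT-Sham replicates 4, 6 and 9 and, like the muscle markers, low on FLT-Surgery replicates 3 and 5, while Ddit4 and Bnip3 stay near their means. The endothelial markers and the osteoblast and osteocyte markers are also highest on those FLT-Sham arrays.

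Fbxo32, the ubiquitin ligase atrogin-1, had a probe spotted 10 times per array. Its log2 ratio was -1.69, 0.78, 1.60 and 2.17 in G-Sham replicates 1, 3, 4 and 5. In FLT-Sham replicates 4, 6, 8 and 9 it was 4.26, 5.57, -1.49 and 3.58. The ratio on 3 of the FLT-Sham arrays was therefore above every other array of the series, while replicate 8 lay below all arrays except G-Sham replicate 1. In G-Surgery replicates 1, 3, 4 and 5 it was -0.19, 1.16, 0.47 and -0.62, and in FLT-Surgery replicates 1, 3 and 5 it was 0.70, -0.69 and -0.65. The Cy5 signals behind these ratios ran from 130 on FLT-Sham replicate 8 to 11527 on FLT-Sham replicate 6, and were above background on 11 arrays. The SD between spots of an array was 0.08 to 0.74 (median 0.37), far below the range between FLT-Sham arrays. FLT-Sham exceeded G-Sham by 2.26 on the log2 scale (SE 1.49, limma adjusted p = 0.543), a difference within the spread of the groups, which overlapped. Within slides FLT-Sham minus G-Sham was 3.48 (1 against 1 array) and 2.31 (3 against 2). FLT-Surgery differed from G-Surgery by -0.42 (SE 0.53, limma adjusted p = 0.702) and from FLT-Sham by -3.19 (SE 1.53, limma adjusted p = 0.237). Without FLT-Sham replicate 8 these FLT-Sham differences were 3.75 (SE 0.93, limma adjusted p = 0.072) and -4.68 (SE 0.63, limma adjusted p = 0.00404). Without FLT-Sham replicate 6 they were 1.40 and -2.33, with neither meeting the unadjusted cut-off, and without G-Sham replicate 1 the first was 1.46.

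Trim63, the ubiquitin ligase MuRF1, which acts on sarcomere proteins, was likewise highest on FLT-Sham replicates 6, 4 and 9. At its brighter probe the log2 ratio was -2.24, 1.85, 1.74 and 3.30 in G-Sham replicates 1, 3, 4 and 5. It was 5.53, 6.31, 0.29 and 4.83 in FLT-Sham replicates 4, 6, 8 and 9. FLT-Sham replicate 8 was below background and lay within the G-Sham range. In G-Surgery replicates 1, 3, 4 and 5 the log2 ratio was 0.37, 1.75, 1.62 and 0.79. It was -0.15, -2.34 and -1.90 in FLT-Surgery replicates 1, 3 and 5, where Cy5 (103, 33.7 and 48.5) was not well above background on any array. All 3 FLT-Surgery values lay below all 4 G-Surgery values and below all 4 FLT-Sham values. The fitted difference of FLT-Surgery from G-Surgery was -2.60 (SE 0.60, unadjusted p = 0.00277, limma adjusted p = 0.258). Because FLT-Surgery was not above background, the size of that difference is not measured, and the Cy5 channel shows only that G-Surgery was at least 2.46-fold higher. From FLT-Sham the fitted difference was -5.70 (SE 1.39, unadjusted p = 0.00372, limma adjusted p = 0.136), with FLT-Sham at least 13.9-fold higher. FLT-Sham exceeded G-Sham by 3.08 (SE 1.52, limma adjusted p = 0.522) with overlapping groups, and G-Surgery differed from G-Sham by -0.03 (SE 1.05, limma adjusted p = 0.992). The bounds use the Cy5 channel alone, so a dye effect would enter them, as each dye was used in 1 orientation. They hold for group means, do not take in the spread between arrays, and are not limits for single arrays. The normexp setting replaced the deposited ratio by median signals with normexp background correction and loess. Under it the fitted difference from G-Surgery was -0.36 and that from FLT-Sham -2.58, and neither met the cut-off. The difference from G-Surgery also missed it with a second loess (-2.45), with all 15 arrays in 1 limma fit (-2.60), with the replicate block (-2.43) and without FLT-Surgery replicate 3 or 5 (-2.16 and -2.38). The difference from FLT-Sham missed it with slide as a block (-5.69), with no filter on dim probes (-5.70) and without FLT-Surgery replicate 3 or 5 (-5.26 and -5.48), and without FLT-Sham replicate 4, 6 or 9 the probe could not be tested. FLT-Sham minus G-Sham was 4.39 without FLT-Sham replicate 8 and 1.94 without G-Sham replicate 1.

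The dimmer Trim63 probe was above background on 3 arrays only, FLT-Sham replicates 4, 6 and 9, where its log2 ratio was 5.23, 4.45 and 1.95. On the other 12 arrays it ran from -1.87 to 1.76 at Cy5 signals under background. At this probe FLT-Sham was at least 2.63-fold higher than G-Sham (limma adjusted p = 0.522) and at least 2.07-fold higher than FLT-Surgery (limma adjusted p = 0.26). G-Surgery and FLT-Surgery could not be compared there, as neither was above background. Arrays lay on 3 slides. At the brighter probe the difference of FLT-Surgery from G-Surgery was -3.05 within slide 1 (2 against 3 arrays) and -1.90 within slide 2 (1 against 1). FLT-Surgery minus FLT-Sham was -7.65 within slide 1 (2 against 1) and -3.96 within slide 2 (1 against 3).

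**Figure D2:**
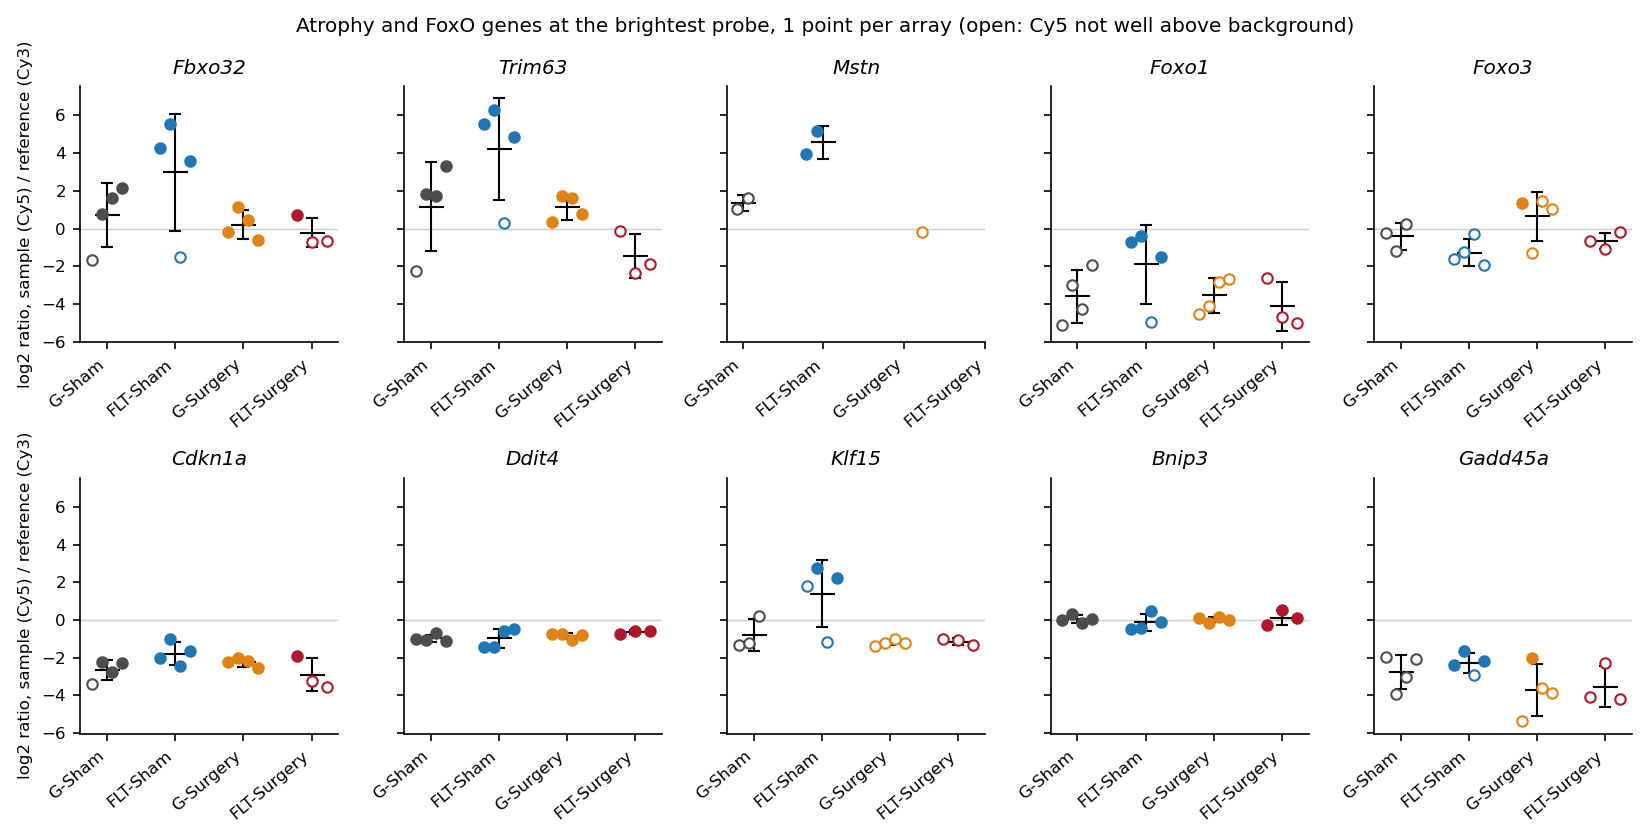
The log2 ratio of each member at its brightest probe, with 1 point per array by group; filled points had Cy5 well above background, open points did not, bars give mean ± SD where at least 2 ratios exist, and arrays with no ratio are not drawn. Fbxo32 and Trim63 reach 5.57 and 6.31 on FLT-Sham replicate 6 and fall below 0.5 on FLT-Sham replicate 8, whereas Ddit4 and Bnip3 each range over no more than 1 log2 unit.

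These ligases are made mainly in muscle, so each was also set against the mean log2 ratio of the 16 muscle markers on the same array. Trim63 minus the muscle mean was -8.62 to -6.00 in G-Sham (mean -7.08 ± 1.10, SD, n = 4) and -6.86 to -3.01 in FLT-Sham (mean -4.45 ± 1.69, SD, n = 4). FLT-Sham replicates 4, 6 and 9, at -3.62, -3.01 and -4.30, lay above every other array, and replicate 8, at -6.86, lay within the G-Sham range. The difference of 2.63 did not pass an exact two-sided permutation test (p = 0.0857, 0.304 adjusted over 8 tests; the smallest possible p was 0.0286). Trim63 itself was under background on G-Sham replicate 1, on FLT-Sham replicate 8 and on all 3 FLT-Surgery arrays, so its distance from the muscle mean on those arrays is set by the floor of the signal, and nothing is read from it for FLT-Surgery. The muscle mean of FLT-Surgery replicates 3 and 5, at 4.27 and 4.26, lay below the G-Surgery range, and that of replicate 1, at 7.73, lay within it. Of the 15 muscle markers tested between FLT-Surgery and G-Surgery 1 was called, beside 3.14% of all probes. This was Myh2, a fast myosin heavy chain, with a fitted difference of -5.48 (SE 1.08, limma adjusted p = 0.208). For Fbxo32 minus the muscle mean the difference was 1.82 between FLT-Sham and G-Sham (p = 0.171, 0.342 adjusted, exact permutation test). Fbxo32 was under background on FLT-Surgery replicates 3 and 5, so no difference from FLT-Surgery is read for it on this scale either. Whether the amount of muscle tissue in a segment accounts for these values was not tested. Cy3 of the muscle markers was above background for 201 of 240 values, and a log2 ratio is compressed where it was not. Mstn and Klf15 were not tested in this way, as most of their arrays were under background.

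**Figure D3:**
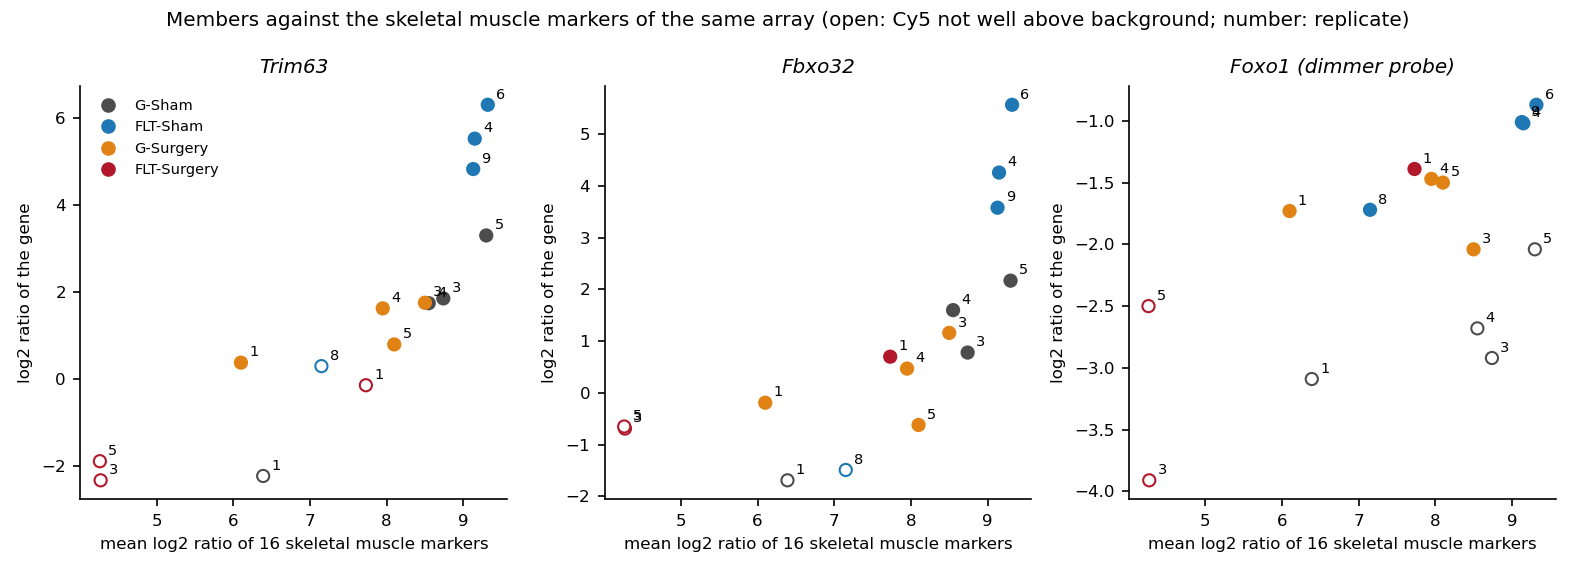
Log2 ratio of Trim63, Fbxo32 and Foxo1 (dimmer probe) against the mean log2 ratio of 16 skeletal muscle markers on the same array, with numbers for replicates and open points where Cy5 was not well above background. Trim63 and Fbxo32 are highest on FLT-Sham replicates 4, 6 and 9, where the muscle mean is 9.13 to 9.32, and G-Sham replicate 5 has a muscle mean of 9.30 with Trim63 at 3.30 and Fbxo32 at 2.17.

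Mstn and Klf15 were close to the limit of detection, and no fold change was fitted for either. Mstn, which signals through activin receptors to restrain muscle growth, was above background on 2 arrays. These were FLT-Sham replicate 4, with Cy5 at 139 and a log2 ratio of 3.95, and FLT-Sham replicate 6, with Cy5 at 295 and a log2 ratio of 5.19. Elsewhere its Cy5 signal was 14.4 to 55.6, and no ratio was given for 10 of the arrays. Klf15 was above background on FLT-Sham replicates 6 and 9, with Cy5 at 198 and 124 and log2 ratios of 2.76 and 2.21. FLT-Sham replicate 4 was near to these, with a Klf15 Cy5 of 113 and a log2 ratio of 1.81, and on the other 12 arrays Cy5 was 15.1 to 50.1. Every array on which either gene was above background was thus among the 3 with the highest Trim63 and Fbxo32.

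Foxo1, a FoxO factor tied to atrophy in muscle, had 2 probes. At the dimmer probe the log2 ratio was -3.09, -2.92, -2.68 and -2.04 in G-Sham replicates 1, 3, 4 and 5. In FLT-Sham replicates 4, 6, 8 and 9 it was -1.02, -0.87, -1.72 and -1.01. Every FLT-Sham array, replicate 8 included, lay above every G-Sham array. In G-Surgery replicates 1, 3, 4 and 5 the log2 ratio was -1.73, -2.04, -1.47 and -1.50. These lay above the G-Sham values, although replicate 3 and the highest G-Sham array were level to 2 decimals. In FLT-Surgery replicates 1, 3 and 5 it was -1.39, -3.91 and -2.50, the widest spread of any group. No G-Sham array was above background, so the difference of FLT-Sham from G-Sham, fitted at 1.53 (SE 0.36, unadjusted p = 0.00223, limma adjusted p = 0.404), is not measured in size, and in the Cy5 channel FLT-Sham was at least 2.25-fold higher. Within slides FLT-Sham minus G-Sham was 1.89 (1 against 1 array) and 1.37 (3 against 2). With slide as a block the fitted value was 1.52, and the unadjusted p of 0.0141 no longer met the cut-off. With a second loess it was 0.94 (limma, unadjusted p = 0.0527), which missed the cut-off too. With the normexp setting, which changed the signals and the loess as well as the background correction, the direction was lost (fitted difference -0.05). G-Surgery was at least 1.84-fold higher than G-Sham (fitted difference 1.0, SE 0.30, unadjusted p = 0.00894, limma adjusted p = 0.344), just under the required fold.

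At the brighter Foxo1 probe only FLT-Sham replicates 4, 6 and 9 were above background, with log2 ratios of -0.71, -0.39 and -1.49. FLT-Sham replicate 8 read -4.95 there, among the lowest, although the dimmer probe placed it at -1.72. The probes of this gene therefore read up to 3.23 log2 units apart on 1 array. The brighter probe was under background there, so that gap is not a measured size. At the brighter probe the FLT-Sham mean was at least 2.59-fold higher than that of G-Sham (limma adjusted p = 0.538) and at least 3.35-fold higher than that of FLT-Surgery (limma adjusted p = 0.256). The groups overlapped in both, and FLT-Sham replicate 8 did not share in the rise. Foxo3, a FoxO factor that also induces autophagy genes, was above background on G-Surgery replicate 1 only, with Cy5 at 177 and a log2 ratio of 1.37. Its Cy5 was 168 and 114 on G-Surgery replicates 4 and 5, and 23.0 to 124 on the others, so no comparison could be made.

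**Figure D4:**
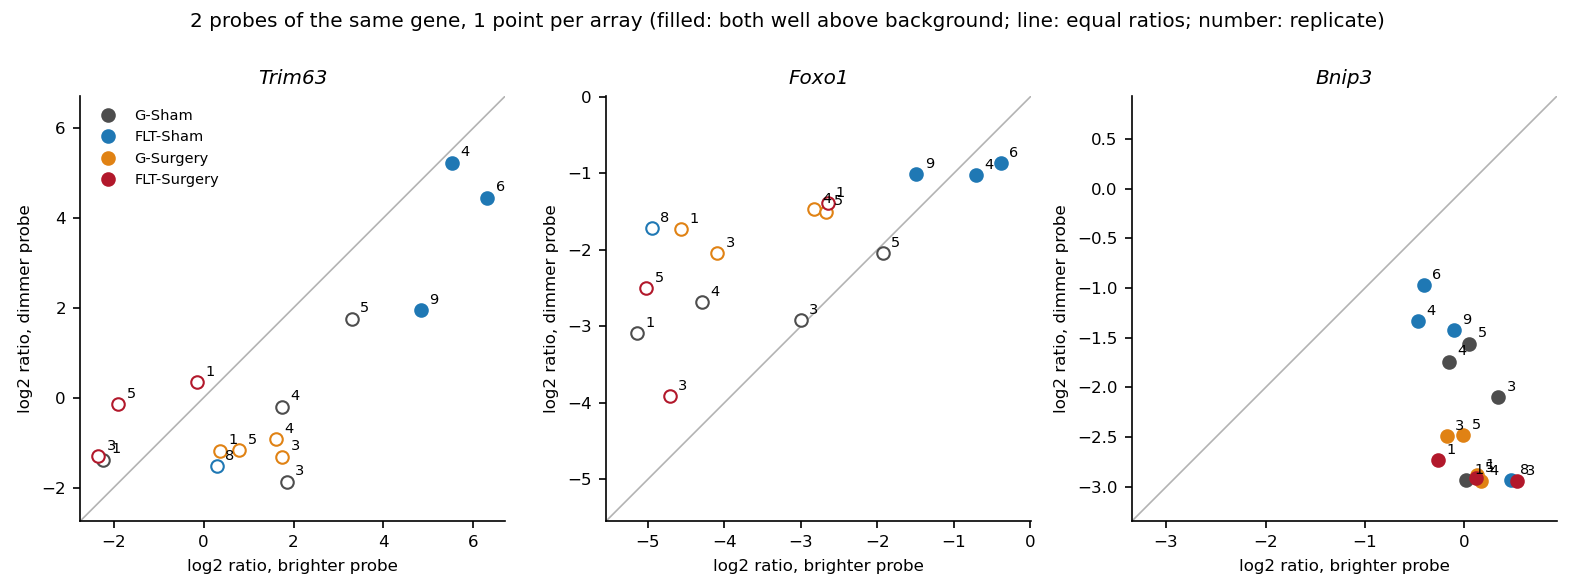
Log2 ratios at 2 probes of Trim63, Foxo1 and Bnip3, with 1 point per array, replicate numbers, a line of equal ratios, and filled points where both probes were well above background. The Foxo1 probes part most on FLT-Sham replicate 8, where the brighter was under background, and the Bnip3 probes, both above background on all arrays, order the arrays differently.

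Among the stress genes, Cdkn1a (p21), a p53 target that halts the cell cycle, was lower than the reference on all arrays. At its probe spotted 10 times the log2 ratio was -3.37, -2.25, -2.74 and -2.29 in G-Sham replicates 1, 3, 4 and 5. In FLT-Sham replicates 4, 6, 8 and 9 it was -2.03, -1.01, -2.43 and -1.65. In G-Surgery replicates 1, 3, 4 and 5 it was -2.24, -1.99, -2.19 and -2.56, and in FLT-Surgery replicates 1, 3 and 5 it was -1.91, -3.24 and -3.53. The groups overlapped in each comparison. FLT-Sham exceeded G-Sham by 0.88 (SE 0.42, limma adjusted p = 0.52), and FLT-Surgery differed from G-Surgery by -0.65 (SE 0.42, limma adjusted p = 0.441). The dimmer Cdkn1a probe, for another transcript, was above background on no array. Gadd45a, a DNA damage and growth arrest gene, was above background on FLT-Sham replicates 4, 6 and 9 and on G-Surgery replicate 3, with log2 ratios of -2.36, -1.63, -2.18 and -2.01. On the other 11 arrays its ratio was -5.37 to -1.96. The FLT-Sham mean was at least 1.2-fold higher than that of G-Sham (fitted difference 0.48, SE 0.51, limma adjusted p = 0.631). It was at least 1.72-fold higher than that of FLT-Surgery (limma adjusted p = 0.221), and the groups overlapped in both. With normexp both differences turned in direction, the first to -0.38 (limma, unadjusted p = 0.0398), so no increase is established.

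Ddit4 (REDD1), an inhibitor of mTOR that glucocorticoids and hypoxia induce, was measured well on all 15 arrays and varied little. Its log2 ratio was -1.10 to -0.71 in G-Sham, -1.45 to -0.46 in FLT-Sham, -1.06 to -0.73 in G-Surgery and -0.75 to -0.56 in FLT-Surgery. The range over all arrays was 0.99, beside 7.25 for Fbxo32 and 8.64 for Trim63. FLT-Sham differed from G-Sham by -0.01 (SE 0.35, limma adjusted p = 0.989) and FLT-Surgery from G-Surgery by 0.20 (SE 0.24, limma adjusted p = 0.675). Over 15 arrays the genes whose log2 ratio followed Ddit4 most closely were Pfkl, a glycolytic enzyme (Pearson r = 0.842), 2810006K23Rik (r = 0.836) and Pycard, an inflammasome adaptor (r = 0.821), of 4482 genes above background throughout. These correlations are a description, because the arrays share a reference and differ in signal.

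Bnip3, a mitochondrial receptor for mitophagy and a FoxO target in muscle, gave different pictures at its probes. At the brightest, above background on all arrays, the log2 ratio was -0.16 to 0.34 in G-Sham, -0.47 to 0.47 in FLT-Sham, -0.18 to 0.17 in G-Surgery and -0.27 to 0.53 in FLT-Surgery. FLT-Sham differed from G-Sham there by -0.19 (SE 0.32, limma adjusted p = 0.763). At the next probe, also above background on all arrays, the log2 ratio was -2.93, -2.10, -1.74 and -1.56 in G-Sham replicates 1, 3, 4 and 5. It was -1.33, -0.97, -2.93 and -1.42 in FLT-Sham replicates 4, 6, 8 and 9, again with 3 arrays high and replicate 8 low. In G-Surgery it was -2.94 to -2.48 and in FLT-Surgery -2.94 to -2.73. FLT-Surgery differed from FLT-Sham by -1.19 at this probe (SE 0.51, limma adjusted p = 0.205) and by 0.25 at the brightest (SE 0.40, limma adjusted p = 0.673). On FLT-Sham replicate 6 the probes differed by 0.56 and on FLT-Surgery replicate 3 by 3.47. The third probe was above background on G-Sham replicate 4 only. The genes closest to the brightest probe over 15 arrays were Hax1 (r = 0.92), Cdkn1b, a cell cycle inhibitor that FoxO factors induce (r = 0.903), and Trp53tg5 (r = 0.899).

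The members were then counted against the whole array. A probe was called where the fold reached 2 and the unadjusted p was 0.01 or less, the cut-off of the study's methods, if its Cy5 was above background on at least 3 of the arrays compared. Mstn, Foxo3 and Klf15 never met that filter. Between FLT-Sham and G-Sham, 1 of 7 tested member genes was called, Foxo1, beside 2.0% of 19737 probes. The median fitted difference was 1.21 over the 10 member probes tested and 0.24 over all. Between FLT-Surgery and G-Surgery, 1 of 6 genes was called, Trim63, beside 3.14% of 16542 probes, and the medians were -0.42 and -0.20. Between G-Surgery and G-Sham none of 6 genes was called, beside 2.59% of 17674 probes, with 1 member probe, that of Foxo1, at an unadjusted p under 0.05. Between FLT-Surgery and FLT-Sham, 1 of 7 genes was called, Trim63, beside 6.65% of 19131 probes, with medians of -1.35 and -0.28. A gene counts as called at any of its probes, while the shares are of probes. In probes, the members called were 1 of 10, 1 of 7, 0 of 7 and 1 of 10 in the order of these comparisons. A member passed the filter in some comparisons only through the group where it was bright, so these counts and medians describe the probes tested and not all 10 genes. No member reached an adjusted p of 0.05 in limma in any comparison. Over all probes 16 reached it between FLT-Surgery and FLT-Sham, 2 between G-Surgery and G-Sham, and 0 in each of the others, where 1889 (Sham) and 2705 (Surgery) probes had an unadjusted p under 0.05. The labels give each sample a replicate number and do not say more of how replicates are related, so p-values measure only the spread between these samples.

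Groups did not overlap at 1 of 10 member probes between FLT-Sham and G-Sham (4.60% of all probes tested), 1 of 7 between FLT-Surgery and G-Surgery (13.6%), 1 of 7 between G-Surgery and G-Sham (6.86%) and 1 of 10 between FLT-Surgery and FLT-Sham (14.7%). These were the probes of Foxo1, Trim63, Foxo1 and Trim63. The comparisons share groups of arrays, so they are not independent of each other.

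The interaction asks whether the difference of flight from ground was the same in operated and sham mice. It was called for Trim63, at -5.67 (SE 1.86, unadjusted p = 0.00873, limma adjusted p = 0.182), and for the dimmer probe of Foxo1, at -2.44 (SE 0.66, unadjusted p = 0.00254, limma adjusted p = 0.171). That is 2 of 7 genes, or 2 of 10 member probes, beside 5.33% of 21773 probes. For Trim63 flight minus ground was 3.08 in sham and -2.60 in operated mice, and for Foxo1 it was 1.53 and -0.91. Both include a group that was not above background, FLT-Surgery for Trim63 and G-Sham for Foxo1, so neither value is a measured size. Neither was called with a second loess, with normexp or with the replicate block. With an array left out Trim63 missed the cut-off in 12 of 15 fits.

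**Figure D5:**
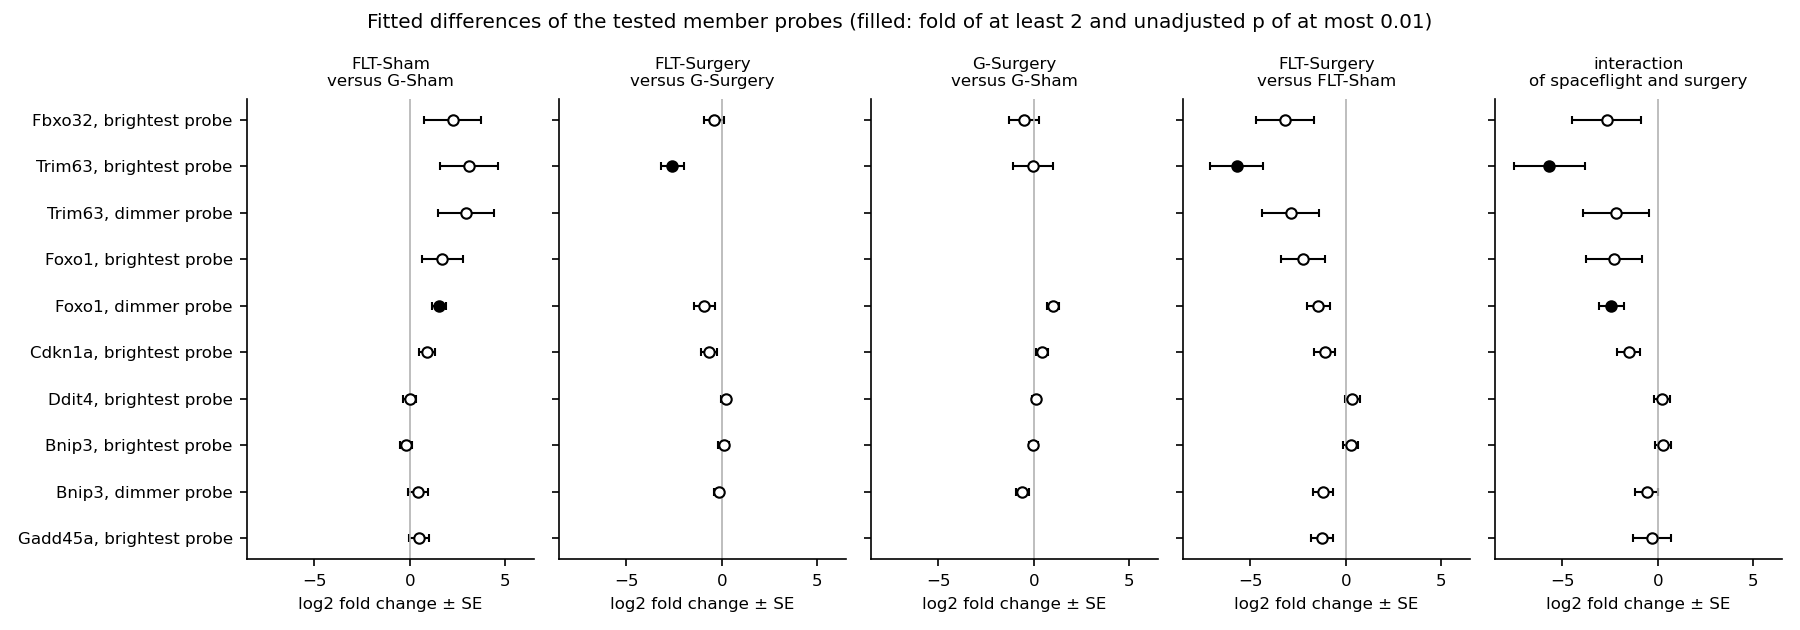
Fitted log2 fold changes ± SE of the 10 tested member probes in 4 comparisons and in the interaction, with filled points where the fold was at least 2 and the unadjusted p at most 0.01; probes not tested in a comparison are absent. The brighter Trim63 probe is called in 3 panels and the dimmer Foxo1 probe in 2, while Ddit4 and the brightest Bnip3 probe lie near 0 throughout.

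Single arrays decided how many members were called. Without FLT-Sham replicate 8, Fbxo32, Trim63 and Foxo1 were called between FLT-Sham and G-Sham, beside 10.7% of all probes. Foxo1 then had a limma adjusted p of 0.0435 at the dimmer probe (fitted difference 1.72). No G-Sham array was above background there, so the probe was tested only through FLT-Sham and the size is not measured. Between FLT-Surgery and FLT-Sham, Fbxo32, Trim63, Foxo1 and Bnip3 were called, beside 26.2%. Trim63 was at -7.02 (SE 0.66, limma adjusted p = 0.00181), a difference from a group with no array above background, so its size is not measured. Bnip3 was called at its next probe (-1.62), while its brightest was at 0.45 (limma adjusted p = 0.331). In the interaction Fbxo32, Trim63 and Foxo1 were called, beside 17.5%. The share of all probes called was therefore higher too, and the members' counts are to be read beside it. Without FLT-Surgery replicate 1, Trim63, Foxo1 and Cdkn1a were called between FLT-Surgery and G-Surgery, beside 12.7%. Trim63 was at -3.25 (SE 0.46, limma adjusted p = 0.0155), again with no FLT-Surgery array above background. Trim63 and Foxo1 were called between FLT-Surgery and FLT-Sham, beside 13.0%, and Trim63, Foxo1 and Cdkn1a in the interaction, beside 10.3%. Without FLT-Surgery replicate 3 or 5 no member was called between FLT-Surgery and G-Surgery.

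Other genes of the pathway were read from lists. The shares of all probes called, against which the counts below are to be read, are those given above. Lists are counted in genes, some with more than 1 probe, so their counts run higher than a share of probes would. Of 20 genes of insulin, AKT and mTOR signalling, which holds FoxO in the cytoplasm, 16 were tested in sham mice and 1 was called, beside 2.0% of all probes. This was Igf1r, the IGF1 receptor, at least 2.92-fold higher in FLT-Sham than in G-Sham (limma adjusted p = 0.45). In operated mice 2 of 15 were called, beside 3.14% of all probes, both lower in FLT-Surgery than in G-Surgery. They were Irs1, the insulin receptor substrate, at least 2.22-fold (limma adjusted p = 0.252), and Pdpk1, the kinase that activates AKT, with a difference of -2.17 (SE 0.55, limma adjusted p = 0.28). The study also measured both genes by qPCR in this comparison and reported smaller decreases than on its array, so the Irs1 bound holds for the array only. Irs1 was also at least 2.19-fold higher in G-Surgery than in G-Sham (limma adjusted p = 0.271), and at least 5.25-fold lower in FLT-Surgery than in FLT-Sham (limma adjusted p = 0.144) at its other probe. Gsk3b, a kinase that AKT inhibits, was at least 4.45-fold lower in FLT-Surgery than in FLT-Sham (limma adjusted p = 0.131). Irs1, Igf1r, Gsk3b and Pdpk1 were called in the interaction, 4 of the 16 tested, beside 5.33% of all probes, with values from -3.71 for Igf1r to -2.54 for Pdpk1. The median of the list was 0.43 in sham and -0.88 in operated mice, beside 0.24 and -0.20 over all probes.

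Of 13 genes of the myostatin and activin axis, 7 at most could be tested. None was called between 2 groups, and in the interaction Fst, follistatin, which binds and blocks myostatin, was called at -4.13 (SE 1.08, limma adjusted p = 0.171), and Tgfbr1, a type I receptor, at -3.86 (SE 1.03, limma adjusted p = 0.171). Of 13 other ubiquitin ligases of muscle, Mul1, a mitochondrial ligase, was lower in FLT-Surgery than in G-Surgery and in FLT-Sham by -1.55 each (limma adjusted p = 0.242 and 0.141), and none was called in sham mice. Of 15 autophagy genes 1 was called, Pink1, a mitophagy kinase, with a difference of -4.69 between FLT-Surgery and FLT-Sham (SE 1.18, limma adjusted p = 0.14). Of 13 glucocorticoid response genes none was called between flight and ground. Cebpb, a stress-induced transcription factor, was higher in G-Surgery than in G-Sham by 1.36 (limma adjusted p = 0.348), Zbtb16 was lower in FLT-Surgery than in FLT-Sham by -2.27 (limma adjusted p = 0.145), and Glul, glutamine synthetase, was called in the interaction at -4.27. Of 15 p53 and stress response genes Sesn1, a sestrin that restrains mTOR, was lower in FLT-Surgery than in G-Surgery by -1.16 and than in FLT-Sham by -1.63 (limma adjusted p = 0.28 and 0.146), and was called in the interaction at -1.86. Of 10 denervation response genes 3 were tested between groups, and Runx1 was called, higher by 1.97 in G-Surgery than in G-Sham (limma adjusted p = 0.346).

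Marker lists of the cell types were read in the same way. None of 16 muscle markers was called between FLT-Sham and G-Sham, where their median was 0.69, and between FLT-Surgery and G-Surgery it was -1.76. Between FLT-Surgery and FLT-Sham 6 muscle markers were lower, led by Mb, myoglobin, at -6.42 (SE 1.45, limma adjusted p = 0.136), with 4 of 6 tested adipocyte, 4 of 8 neutrophil and 4 of 4 tested erythroid markers also lower, beside 6.65% of all probes called (1191 of the 1272 lower). Of 6 adipocyte markers tested, Cidec and Plin1 were called higher in FLT-Sham than in G-Sham, beside 2.0% of all probes. In G-Sham Plin1 was above background on 0 of 4 arrays and Cidec on 1, so neither size is measured. Ratios of exactly 0 in G-Sham also enter the Cidec fit. Of 10 osteoblast and osteocyte markers 1 of 6 tested was called between FLT-Sham and G-Sham, Ibsp, a bone matrix protein (4.02, SE 1.04, limma adjusted p = 0.424), and 1 of 5 between FLT-Surgery and FLT-Sham, Alpl, alkaline phosphatase (-4.53, SE 0.53, limma adjusted p = 0.0397, with no FLT-Surgery array above background). The list was not uniform in direction, as the median log2 ratio of Runx2, an osteoblast transcription factor, was 0.94 in FLT-Sham and 1.85 in G-Sham, and that of Mepe, an osteocyte matrix protein, was 2.37 and 2.81. The mean of the osteoblast and osteocyte markers was nevertheless highest on FLT-Sham replicates 4, 6 and 9, at 2.08, 1.62 and 1.15. That of the endothelial markers was highest on the same arrays, at 4.12, 3.68 and 2.69. Macrophage markers had their highest mean on G-Surgery replicate 3, at 0.21. The part of any of these cell types in the values of the members was not tested.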

How the data were processed

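Femoral RNA of 15 mice was hybridised to 2-colour arrays. The authors deposited Agilent Feature Extraction output (version 12.0.3.1 in the file headers), with the intensity of both channels after background subtraction and lowess dye normalization, and their log10 ratio. A series table deposited by the authors holds the same log10 ratio to within 0.005. The deposited ratio was used on the log2 scale with no further loess. A ratio of exactly 0, written where neither channel was significant (16.2% to 33.1% of probes per array), counts as no ratio in descriptions. In the main fits and in the counts of groups that did not overlap it was kept as a value of 0. Outlier spots were dropped and spots of a probe averaged. Of 55681 probes 28026 were matched to a symbol by accession, 15 of them members. A probe entered a comparison where 3 or more of its arrays had Cy5 well above background. Each comparison was fitted on its own groups in limma (version 3.58.1, R version 4.3.3), with Benjamini-Hochberg adjustment over all probes tested, and the fit was tested on simulated data. A gene was called if any probe was. Bounds compare Cy5 levels after Aquantile normalization with, per array, the dimmest signal that was still above background. They are taken on group means and leave out the spread between arrays. Members are given at every probe, and other genes as at most 4 called per list and comparison and 3 most alike for members above background on all arrays. The members and lists were chosen with earlier results of these data known. The number of arrays limits the precision. Replicate numbers named different mice and did not pair the groups. The normexp setting used median signals in place of mean signals. Settings tried were 15 planned ones, 1 chosen after seeing the data (ratios of exactly 0 as missing), and each array left out.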

Additional observations from a re-analysis of the deposited data

Results flagged for a closer look

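Among 40 combinations of a member probe and a group of 4 ratios, 1 had an array set apart from the others by Dixon's criterion, where chance gives about 1 in 20. This was Foxo3 on G-Surgery replicate 3, with a log2 ratio of -1.29 beside 1.03 to 1.48 on the other 3 arrays. Its Cy5 signal was not well above background there, and only G-Surgery replicate 1 was above background in that group.

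The difference of flight from ground differed between sham and operated mice, by the interaction term in limma, for Trim63 (-5.67, limma adjusted p = 0.182) and for the dimmer Foxo1 probe (-2.44, limma adjusted p = 0.171). Both passed the unadjusted cut-off and not the adjusted one. For Trim63 the interaction met the cut-off in 3 of 15 fits with an array left out, and for the dimmer Foxo1 probe in all 15.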

How the results depend on the processing

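Counts of members called depended on the settings. From 1 between FLT-Sham and G-Sham, the count was 0 with the second loess, normexp, slide as a block, either stricter background filter, an adjusted p of 0.05 or the median over probes, 3 with array weights, and 1 to 3 with an array left out. From 1 between FLT-Surgery and G-Surgery, it was 0 with the second loess, normexp, all 15 arrays in 1 fit, the stricter filters, the adjusted p or the replicate block, and 0 to 3 with an array left out. From 0 between G-Surgery and G-Sham, it was 1 with array weights and 0 to 1 with an array left out (Foxo1 without G-Sham replicate 5 or G-Surgery replicate 3). From 1 between FLT-Surgery and FLT-Sham, it was 0 with normexp, slide as a block, no filter, the stricter filters, the adjusted p or the median over probes, 2 with all 15 arrays in 1 fit, 5 with array weights, and 0 to 4 with an array left out. It was 0 without FLT-Sham replicate 4, 6 or 9, where Trim63 had too few arrays above background to be tested, or without FLT-Surgery replicate 5, and without FLT-Surgery replicate 3 the gene called was Gadd45a. From 2 in the interaction, it was 1 with slide as a block or no filter, 0 with the second loess, normexp, the stricter filters, the adjusted p, the median over probes or the replicate block, 4 with array weights, and 1 to 3 with an array left out.

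Same-numbered mice did not deviate together, and with the replicate block no member was called between FLT-Surgery and G-Surgery (Trim63 -2.43), between G-Surgery and G-Sham, or in the interaction (Trim63 -6.25). No block could be fitted for the other comparisons, which share fewer than 2 numbers.

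Directions that turned were as follows. With normexp, Cdkn1a was at -0.12, Gadd45a at -0.38 and the dimmer Foxo1 probe at -0.05 between FLT-Sham and G-Sham. Cdkn1a was then at 0.27 and the dimmer Foxo1 probe at 0.05 between FLT-Surgery and G-Surgery. Foxo1 was at 0.06 and 0.22 at its probes, Cdkn1a at 0.39 and Gadd45a at 0.47 between FLT-Surgery and FLT-Sham, and in the interaction Foxo1 was at 0.11 and 0.10, Cdkn1a at 0.38 and Gadd45a at 0.61. With the second loess Fbxo32 was at 0.60 between FLT-Surgery and G-Surgery and Gadd45a at 0.91 in the interaction. With Cy5 alone Ddit4 was at 0.05 between FLT-Sham and G-Sham and Gadd45a at 0.06 in the interaction. With slide as a block Ddit4 was at 0.05 between FLT-Sham and G-Sham and Trim63 at 0.09 between G-Surgery and G-Sham. The median over Bnip3 probes was 0.11, -0.03, -0.47 and -0.15 in the Sham, Surgery, flight and interaction comparisons. With an array left out, Ddit4 was at -0.18 to 0.15 between FLT-Sham and G-Sham, Bnip3 at -0.11 to 0.29 between FLT-Surgery and G-Surgery and at -0.11 to 0.06 between G-Surgery and G-Sham, where Trim63 was at -1.16 to 0.68, and Gadd45a at -0.92 to 0.26 in the interaction. The cause was not tested.

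Set against the muscle markers, values that involve FLT-Surgery rest on member signals under background and are listed without reading. Fbxo32 was at 2.19 between FLT-Surgery and G-Surgery (exact permutation test, p = 0.0286) and at -0.11 between G-Surgery and G-Sham with the second loess. Trim63 was at 1.33 with Cy5 alone and 1.95 with Ckm, Acta1 and Mylpf alone between FLT-Sham and G-Sham, and at 1.61 with those 3 markers between G-Surgery and G-Sham (exact permutation test, p = 0.0286 each). Mylpf was above background on 0 of 4 G-Surgery and 1 of 4 G-Sham arrays, so values with those 3 markers rest partly on the floor. With all 16 markers Trim63 was at 0.55 between G-Surgery and G-Sham (exact permutation test, p = 0.486). With normexp Trim63 was at 2.13 between FLT-Surgery and G-Surgery and 1.51 between FLT-Surgery and FLT-Sham. With an array left out, Fbxo32 was at 1.17 to 2.80, 1.40 to 2.52, -0.32 to 0.49 and -0.90 to 0.78, and Trim63 at 2.12 to 3.44, -0.72 to 0.15, 0.04 to 0.91 and -3.24 to -1.93, in the Sham, Surgery, ground and flight comparisons.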
